A study of Mus musculus with 12 samples.

Results

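C2C12 myoblasts given an siRNA that mimics miR-206 and cultured for 24 h were compared with C2C12 cells of the Day1 group, kept for 24 h in differentiation medium. C2C12 is a mouse myoblast line that stops dividing and fuses into myotubes when serum is lowered. The comparison used 6 of the 12 Illumina bead arrays of the study, 3 of mimic cells and 3 of Day1 cells, chosen by their titles. The other 6 arrays held cells at 48 h, 3 with antimiR-206, an inhibitor of miR-206, and 3 of the Day2 group, labelled as beginning differentiation. The labels call both the mimic and the Day1 cells undifferentiated, and the same Lipofectamine protocol stands on all samples. No label states a control oligonucleotide for Day1 cells or the medium of the mimic cells, so the mimic cannot be told apart from transfection or medium in this comparison. The replicates are numbered but nothing states that they were separate cultures. Each p-value therefore sets a difference only against the spread of these replicates within their groups, and that spread may be technical.

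miR-206 is a muscle microRNA, made almost only in skeletal muscle, where it rises during differentiation. It shares its seed, the bases that pair with target transcripts, with miR-1, and the pair are known to lower transcripts that hold back differentiation, among them regulators of cell division and of cell contacts. The mature sequence that the mimic stands for is printed because it defines the treatment. The capitals mark the seed, bases 2 to 8 of 22. It lies at chr1:20679055-20679076 on the plus strand of GRCm38.p6, in the microRNA gene Mir206 (RefSeq).
mmu-miR-206-3p: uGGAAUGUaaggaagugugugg
No probe was named for Mir206, so the amount of mimic in the cells was not measured on these arrays.

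Mimic replicate 1 stood apart from mimic replicates 2 and 3 and lay close to the Day1 arrays. Across 10653 genes its log2 intensities correlated at 0.993 on average with Day1 and at 0.971 with the other mimic arrays, which correlated with each other at 0.995. On the main axis of variation among the 6 arrays, which held 75.1% of the variance, mimic replicate 1 scored -14.6, mimic replicates 2 and 3 scored 34.9 and 37.2, and the Day1 arrays scored -16.3, -21.1 and -20.2. On the next axis, with 10.1% of the variance, it scored 16.6, above the other 5 arrays. Only 19 genes were at least 2-fold above the Day1 mean and 13 at least 2-fold below it on mimic replicate 1. On mimic replicate 2 the counts were 432 and 274, and on mimic replicate 3 they were 441 and 314. No measurement here checks the label of this array or how much mimic its cells took up, so whether it was mislabelled, took up less mimic or differed otherwise cannot be told apart. That doubt applies to every mean over the 3 mimic arrays, and the counts of genes and list members are therefore also given without replicate 1.

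**Figure D1:**
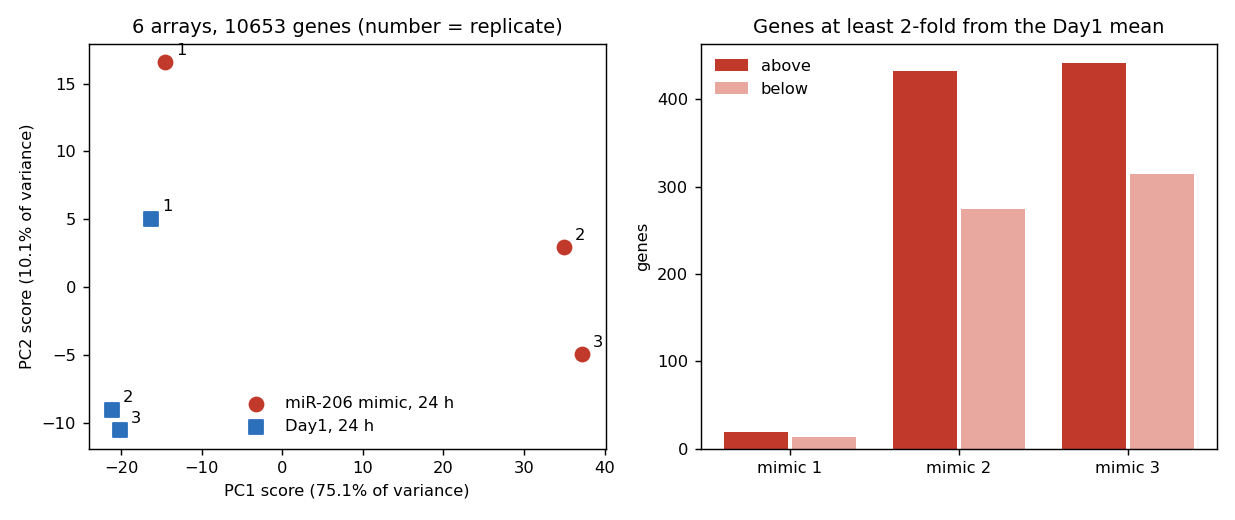
Left, principal component scores of the 3 mimic arrays (red circles) and the 3 Day1 arrays (blue squares) over 10653 genes, with the replicate number beside each point. Right, the number of genes on each mimic array at least 2-fold above (dark) or below (light) the Day1 mean, 19 and 13 on replicate 1 against 432 and 274 on replicate 2 and 441 and 314 on replicate 3.

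Mimic replicate 1 and Day1 replicate 1 were the brightest of the 6 arrays. Median raw intensity was 56.8, 50 and 49.8 on mimic arrays 1 to 3, and 60.6, 49.5 and 51.8 on the Day1 arrays. Between 37.4% and 40.1% of the 45281 probes were above background on each of these 6 arrays. Over the 21070 probes not above background on any of the 12 arrays, mimic replicate 1 correlated at 0.439 and 0.426 with mimic replicates 2 and 3. It correlated at 0.594 with Day1 replicate 1, 0.595 with antimiR replicate 2 and 0.566 with Day2 replicate 3. Pairs among these arrays, 1 from each group, correlated at 0.566 to 0.638, and all other pairs at 0.28 to 0.483. They were also the brightest of the 12, with medians of 58.9 for antimiR replicate 2 and 63.2 for Day2 replicate 3. The part of this grouping in the results was not tested. Of 9 myoblast markers, 7 were above background on all 6 arrays, and Myf5 and Msc on none. Markers of endothelial cells and macrophages were mostly absent, with 6 of 9 and 5 of 8 probed markers above background on none of the 6 arrays, the defining Pecam1, Cdh5, Adgre1 and Ptprc among them. In these bulk samples, fewer cells of a type and less RNA per cell cannot be told apart.

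The question of the comparison is how the mimic changed the transcriptome at the same culture time. With all 12 arrays in a single limma model, 902 of 10653 genes (8.47%) were called at an adjusted p under 0.05. With the mimic 467 of them rose (4.38%) and 435 fell (4.08%), and 3155 genes (29.6%) had an unadjusted p under 0.05. At least 2-fold changes were found for 114 of the higher genes (1.07%) and 61 of the lower genes (0.573%). Without mimic replicate 1, 4017 genes passed (37.7%), 1940 higher (18.2%) and 2077 lower (19.5%), of which 426 (4%) and 274 (2.57%) changed at least 2-fold. All 902 genes were among these. The shares of 18.2% and 19.5% are those of all tested genes, to be read beside each list count without replicate 1. Without mimic replicate 2 or 3, only 35 and 32 genes passed. Leaving out Day1 replicate 1 left 136 higher and 70 lower genes, and Day1 replicate 2 or 3 left 28 genes each. The raw columns numbered Day2 replicates 2 and 3 match each other's column in the deposited processed table, so which is which is uncertain, and the raw numbering is used throughout. Day2 replicates 2 or 3 left 239 and 290, and antimiR replicates 2 or 3 left 366 and 324. In 2616 genes (24.6%) the 3 mimic values lay all above or all below the 3 Day1 values, 1222 above (11.5%) and 1394 below (13.1%). A fit on the 6 compared arrays alone called 3 genes (0.0282%), Aldh3a1, Ccl5 and Cdsn.

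Those 3 genes differed from Day1 on every mimic array. Aldh3a1, an aldehyde dehydrogenase, measured 12.03, 11.92 and 11.65 (log2 normalized intensity, the unit of all levels here) in mimic cells 1 to 3, against 10.08, 10.32 and 10.20 in Day1 cells. Ccl5, a chemokine that draws T cells and monocytes, measured 9.87, 11.13 and 11.03 in mimic cells, against 7.86, 7.25 and 7.43 in Day1 cells. Cdsn, corneodesmosin, an adhesion protein known from cornified skin, measured 8.27, 7.48 and 7.24 in mimic cells, against 10.09, 10.11 and 10.26 in Day1 cells. No value of a mimic array overlapped the Day1 values in these 3 genes, and replicate 1 was the highest mimic array for Aldh3a1 but the one nearest to Day1 for Ccl5 and Cdsn. The log2 changes were 1.67 ± 0.15 for Aldh3a1 (limma SE, adjusted p = 0.000177), 3.17 ± 0.32 for Ccl5 (adjusted p = 0.000669) and -2.49 ± 0.21 for Cdsn (adjusted p = 0.000155). Ccl5 and Cdsn also passed under each of the 25 other ways of processing or fitting the data, while Aldh3a1 did not pass with arrays scaled to a common median (adjusted p = 0.359).

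Leaving out each of the 12 arrays in turn, 26 genes passed every time, 11 higher and 15 lower. Beside Aldh3a1 and Ccl5, the higher ones were the chemokine Ccl9, the collagen cross-linking enzyme Lox, the cadherin Cdh13, the transcription factor Sox9, the interferon-induced antiviral gene Rsad2, the mitochondrial carbonic anhydrase Car5b, the mitochondrial membrane protein Tspo, the carbonyl reductase Cbr2 and the glutathione transferase Gsta3, whose probe may also read its close relatives. The lower ones were Cdsn, the stress response genes Trib3, Atf3, Nupr1 and Eif4ebp1, the hormone gene Adm2, the alanine aminotransferase Gpt2, the angiopoietin-like gene Angptl6, the immune cell receptor gene Slamf9, the mitochondrial gene Chchd10, the receptor gene Adgrg3, the calcium pump gene Atp2a3, and Maats1, Gm5935 and Taf7l. Of these 26 genes, Cdsn, Ccl5, Maats1, Slamf9, Gm5935, Taf7l, Trib3 and Adm2 also passed with arrays scaled to a common median. Maats1 measured 5.66, 4.41 and 4.26 in mimic cells, above background on 1 of the 3 mimic arrays, against 6.95, 7.06 and 7.07 in Day1 cells. Slamf9, Gm5935, Adm2 and Atf3 likewise exceeded background on 1 mimic array of 3 and on every Day1 array. Taf7l was above background on no mimic array and on all 3 Day1 arrays, a level at least 1.39-fold lower in mimic cells with the reported processing. Its log2 change was -0.85 as reported and -0.32 under another way of processing.

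Genes of the ATF4 and CHOP stress response fell with the mimic. This is the program of transcription that cells switch on when amino acids run short or the endoplasmic reticulum is stressed. Of 21 tested members, 16 fell with the mimic and 0 rose, beside 4.08% of all tested genes that fell, and the median log2 change was -0.91 over the list and 0.00 over all tested genes. Without replicate 1, 16 fell and 2 rose. Trib3, a pseudokinase that ATF4 and CHOP induce and that restrains Akt signalling, measured 8.35, 5.67 and 6.04 in mimic cells, against 9.87, 10.19 and 10.16 in Day1 cells. Chac1, an enzyme that degrades glutathione, measured 10.58, 8.03 and 7.78 in mimic cells, against 11.48, 11.71 and 11.61 in Day1 cells. Replicate 1 was below all Day1 arrays in both genes but closer to them than to the other mimic arrays. The log2 change was -3.39 ± 0.48 for Trib3 (limma adjusted p = 0.00367) and -2.80 ± 0.50 for Chac1 (adjusted p = 0.0151), and -4.22 and -3.69 without replicate 1.

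The transcription factors of this program fell as well, at limma adjusted p under 0.05. Atf4, its master regulator, fell by 0.72 on the log2 scale, Ddit3, which encodes CHOP, by 1.53, Atf5 by 1.33 and Atf3 by 1.00. Atf3 measured 4.66, 4.41 and 4.43 in mimic cells, above background on 1 of the 3 mimic arrays, against 5.36, 5.58 and 5.56 in Day1 cells. Asns, asparagine synthetase, measured 11.80, 9.98 and 9.92 in mimic cells, against 12.36, 12.42 and 12.40 in Day1 cells (log2 change -1.83 ± 0.38, limma adjusted p = 0.0242). Its mean was 10.28 in antimiR cells at 48 h, so the low level was not particular to the mimic. The other members that fell were Eif4ebp1, a repressor of translation, Nupr1, Slc3a2 and Slc7a11, the subunits of a cystine transporter, Cth, Stc2, Sesn2, the hormone gene Fgf21 and Ppp1r15a, which restores translation after stress, by 0.60 to 1.37. Slc7a11 and Cth each exceeded background on a single mimic array. Cebpb, Ddit4, Herpud1, Slc7a3, on 2 arrays of each group above background, and Vldlr did not pass, with log2 changes between -0.23 and 0.33. Without replicate 1, Cebpb and Ddit4 were the 2 that rose, by 0.51 and 0.65. The number called was 5 without mimic replicate 2 or 3, 5 and 4 without Day1 replicates 2 and 3, and 3 with arrays scaled to a common median.

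The promoters of 4 of the genes that fell are printed because they hold the letters of the element through which ATF4 is known to act. The C/EBP-ATF response element was searched as TGATGNAA on both strands in the 250 bases before each gene's start, in RefSeq promoters of GRCm38.p6. It was present in 8 of the 18 tested members that had a promoter in the table (44.4%), in 6 of the 14 of them that fell (42.9%), and in 220 of 8605 tested genes (2.56%). Each line holds 150 bases of sequence 5′ to 3′ along the gene's strand, with the match in capitals, at chr2:119350992-119351141 (plus strand) for Chac1, chr6:7693210-7693359 (minus strand) for Asns, chr1:191183365-191183514 (minus strand) for Atf3 and chr7:126625502-126625651 (minus strand) for Nupr1.
Chac1: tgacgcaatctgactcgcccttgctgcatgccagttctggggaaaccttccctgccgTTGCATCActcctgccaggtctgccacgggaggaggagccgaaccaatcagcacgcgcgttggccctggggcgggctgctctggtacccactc
Asns: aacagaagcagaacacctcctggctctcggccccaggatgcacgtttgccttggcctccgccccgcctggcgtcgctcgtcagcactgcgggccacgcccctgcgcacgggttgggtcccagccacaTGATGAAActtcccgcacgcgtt
Atf3: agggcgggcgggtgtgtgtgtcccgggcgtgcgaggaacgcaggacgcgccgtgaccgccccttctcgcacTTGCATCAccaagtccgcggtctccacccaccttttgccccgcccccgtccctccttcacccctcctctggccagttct
Nupr1: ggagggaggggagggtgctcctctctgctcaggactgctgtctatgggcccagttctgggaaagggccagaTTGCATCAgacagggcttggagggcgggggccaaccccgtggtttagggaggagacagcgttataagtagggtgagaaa
The match reads along the gene's strand in Asns and along the opposite strand in Chac1, Atf3 and Nupr1. These are matches of letters and not measured binding sites.

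Enzymes of serine and one-carbon metabolism, listed with some of alanine and proline synthesis, also fell in part. ATF4 is known to induce many of them. Of 11 tested members of this list, 6 fell and 0 rose, beside 4.08% and 4.38% of all tested genes. The median log2 change was -1.05. Aldh1l2, a mitochondrial folate enzyme, measured 8.66, 6.93 and 6.71 in mimic cells, against 9.80, 9.71 and 9.66 in Day1 cells. Shmt2, which moves a carbon from serine to folate in mitochondria, measured 9.94, 8.48 and 8.55 in mimic cells, against 10.69, 10.66 and 10.65 in Day1 cells. The groups did not overlap in either gene, with log2 changes of -2.29 ± 0.36 for Aldh1l2 (limma adjusted p = 0.00852) and -1.68 ± 0.30 for Shmt2 (adjusted p = 0.0157). Mthfd2, its partner in the folate cycle, fell by 1.44, Psat1 by 1.33, Gpt2 by 1.14 and Aldh18a1, which starts proline synthesis, by 0.91. Without replicate 1, 9 members fell and 1 rose. The number called was 2 without mimic replicate 2 or 3, 3 without Day1 replicate 1, 1 without Day1 replicate 2 or 3, and 1 with arrays scaled to a common median.

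The enzymes that charge transfer RNAs with amino acids moved the same way. Of 18 tested cytosolic aminoacyl-tRNA synthetases, 10 fell and 0 rose, beside 4.08% and 4.38% of all tested genes. The median log2 change was -0.77. Without replicate 1, 15 fell, beside 19.5% of all tested genes. Gars, for glycine, measured 12.79, 12.04 and 11.96 in mimic cells, against 13.02, 13.22 and 13.19 in Day1 cells (log2 change -0.88 ± 0.17, limma adjusted p = 0.0183). Mimic replicate 1 lay just below the Day1 arrays, and replicates 2 and 3 well below it. Aars, for alanine, fell by 1.16, Iars by 1.12, Sars by 0.94 and Tars by 0.74. The smallest change was in Qars, at -0.01. None passed without mimic replicate 2 or 3 or Day1 replicate 2 or 3, 3 without Day1 replicate 1, 6 without Day2 replicate 2, and none with arrays scaled to a common median. Of the 6 lower synthetases with a promoter in the table, Aars, Gars and Tars held the letters of the C/EBP-ATF response element (50%). Of 5 lower genes of the serine and one-carbon list 0 did.

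Beyond these lists, the largest fall of all was in Cox6a2, the heart and muscle form of a cytochrome c oxidase subunit. It measured 7.73, 4.65 and 4.93 in mimic cells, against 9.19, 9.18 and 9.31 in Day1 cells. Its log2 change was -3.46 ± 0.56 (limma adjusted p = 0.00937) and -4.44 without replicate 1, and it was below all Day1 values on every mimic array. Avil, an actin-binding protein, measured 6.69, 4.38 and 4.34 in mimic cells, above background on 1 of the 3 mimic arrays, against 7.541, 7.573 and 7.398 in Day1 cells. Angptl6 fell by 1.67, Gm5935 by 1.63 and Mir17hg, the host transcript of the miR-17-92 microRNA cluster, by 1.64. Of 4 tested keratinocyte markers 2 fell, Cdsn and Lor, with Lor lower by a log2 difference of -0.95. The other 2, Krt10 and Krt14, had log2 changes of -0.12 and 0.02 that did not pass. The log2 of the summed linear intensities of the 4 markers was 11.1 to 11.2 on the mimic arrays and 11.7 on each Day1 array. Krt5, Krt1, Ivl, Krt6a and Dsg1a were above background on none of these arrays. Cdsn and Lor both passed without replicate 1. Of the 2 called markers, 1 passed without mimic replicate 2 or 3 or any Day1 replicate, or with median scaling.

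**Figure D2:**
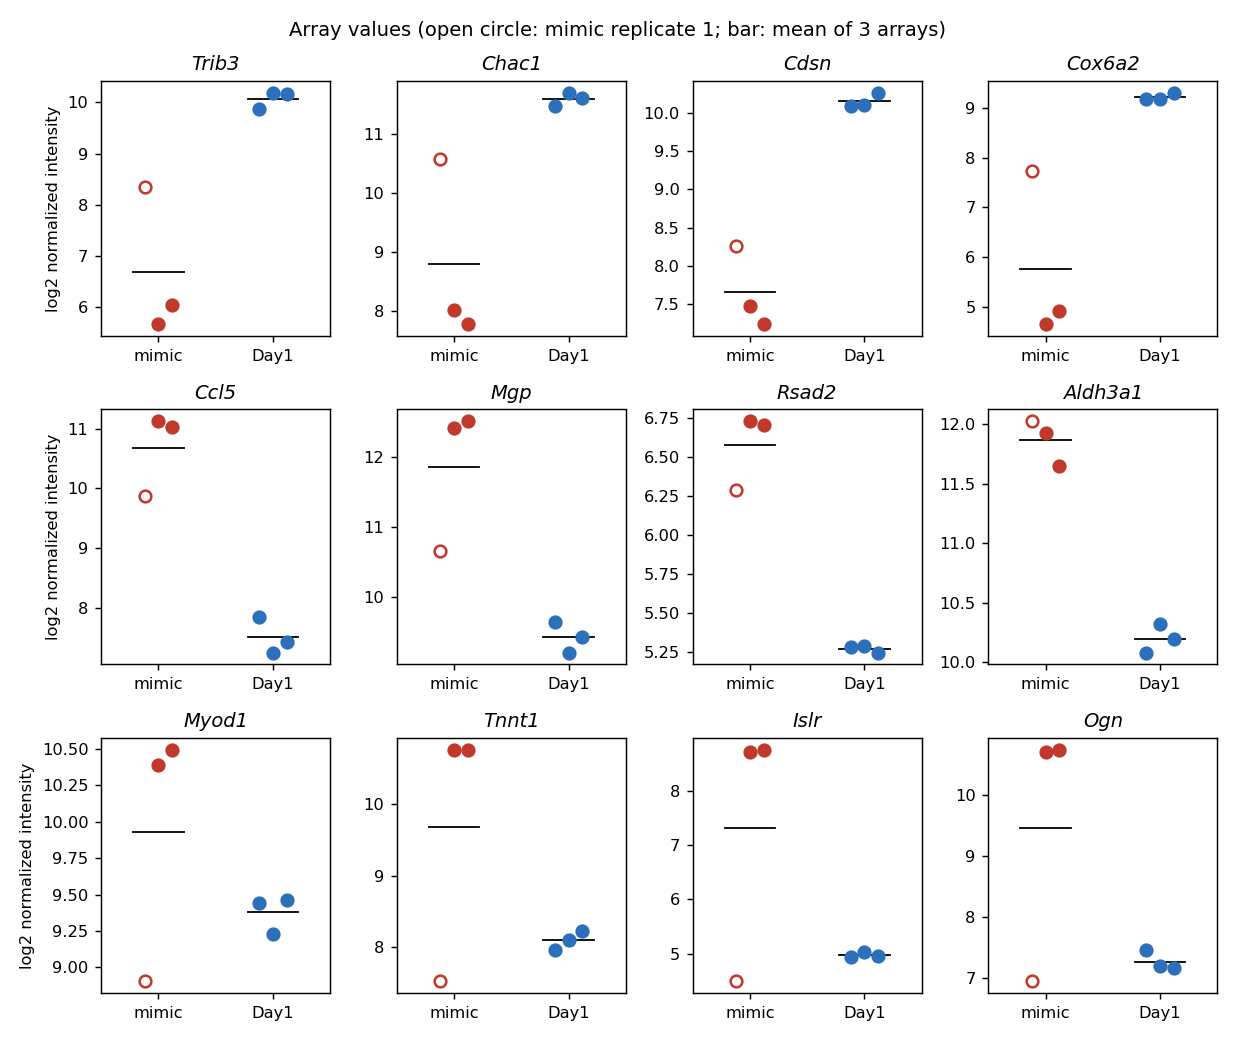
Level of 12 genes on each array, in log2 normalized intensity, for mimic cells (red, left) and Day1 cells (blue, right), with a bar at the mean of 3 arrays. The open circle, mimic replicate 1, lies between the groups for Trib3, Chac1, Cdsn, Cox6a2, Ccl5, Mgp and Rsad2, above the other mimic arrays for Aldh3a1, and below the Day1 arrays for Myod1, Tnnt1, Islr and Ogn.

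On the higher side, genes that interferon induces rose in part. Interferon-stimulated genes are the antiviral program that cells mount after sensing foreign RNA. Of 25 tested interferon-induced genes, 5 rose and 0 fell, beside 4.38% of all tested genes that rose, with a median log2 change of 0.38. Rsad2, the antiviral enzyme viperin, measured 6.29, 6.73 and 6.71 in mimic cells, against 5.28, 5.29 and 5.25 in Day1 cells. Isg15, a ubiquitin-like modifier, measured 6.28, 7.43 and 7.70 in mimic cells, against 5.51, 5.44 and 5.16 in Day1 cells. All mimic arrays, replicate 1 included, were above all Day1 arrays for both. The log2 change was 1.30 ± 0.18 for Rsad2 (limma adjusted p = 0.0031) and 1.76 ± 0.28 for Isg15 (adjusted p = 0.00852).

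Ifit3, which binds foreign RNA complexes, rose by 1.39 and Ifi27l2a by 3.06 on the log2 scale. Oasl2, a relative of the oligoadenylate synthetases, measured 5.23, 6.90 and 6.90 in mimic cells and was above background on no Day1 array. With the reported processing its level was at least 3.15-fold higher in mimic cells (limma adjusted p = 0.018). Its log2 change was 1.985 as reported and as low as 0.79 under another way of processing. Ifit2 had a log2 change of 0.06 that did not pass, and Mx1, Mx2 and Oas2 were above background on none of the 6 arrays. Without replicate 1, 13 rose and Irgm1 fell. The number called was 1 without mimic replicate 2, 2 without mimic replicate 3, 1 without Day1 replicate 2 or 3, and 1 with arrays scaled to a common median. A list of 14 sensors of double-stranded RNA and interferon transcription factors also held genes of DNA sensing, such as Cgas. None passed in limma with all arrays, and 7 had an unadjusted p under 0.05. Their log2 changes went both ways, 0.52 for Eif2ak2 and 0.57 for Irf1, but -0.82 for Cgas and -0.33 for Irf3. Without replicate 1, 6 rose and 2 fell, Cgas and Irf3, beside 18.2% and 19.5% of all tested genes.

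The interferon-stimulated response element was searched as GAAA, any 2 bases and GAAA again, on both strands of the 250 bases before the start in the same promoters. It was present in 9 of 17 tested interferon-induced genes with a promoter in the table (52.9%), among them Ifit3, Isg15 and Rsad2, 3 of the 4 higher ones, and in 270 of 8605 tested genes (3.14%). The 150 bases shown are at chr4:156200819-156200968 (minus strand) for Isg15 and chr12:26456493-26456642 (minus strand) for Rsad2, with the matches in capitals.
Isg15: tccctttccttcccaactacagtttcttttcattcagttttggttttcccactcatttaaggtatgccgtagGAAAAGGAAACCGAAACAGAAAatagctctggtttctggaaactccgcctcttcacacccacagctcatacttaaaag
Rsad2: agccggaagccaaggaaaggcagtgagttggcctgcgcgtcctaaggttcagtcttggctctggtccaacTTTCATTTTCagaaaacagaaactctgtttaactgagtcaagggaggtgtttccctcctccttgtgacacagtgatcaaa
Isg15 holds 3 overlapping matches along its own strand, and Rsad2 a single match on the opposite strand.

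Some genes of chemokines and of antigen presentation also rose. Of 17 tested chemokine and cytokine genes, 5 rose and 0 fell, beside 4.38% and 4.08% of all tested genes, with a median log2 change of 0.34. Without replicate 1, 7 rose and 2 fell, Ccl7 by 0.41 and Csf1 by 0.78. The 5 that rose with all arrays were Ccl5, Ccl8, above background on 2 of 3 Day1 arrays, by 0.84, Cxcl12 by 0.92, Cxcl1 by 0.67 and Nfkbia, the inhibitor that NF-kappaB induces, by 0.70. Ccl9, outside that list, measured 6.79, 7.19 and 6.99 in mimic cells, against 5.88, 5.65 and 5.56 in Day1 cells. The cytokine gene Il6 was above background on none of the 6 arrays. A single member of the list, 1 of 17, passed without mimic replicate 2 or 3, Day1 replicate 2 or 3, or with arrays scaled to a common median, 2 members passed without Day1 replicate 1 and 3 without Day2 replicate 2 or 3 or antimiR replicate 3.

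Of 13 tested antigen presentation genes, 6 rose and 1 fell, beside the same shares of all tested genes, with a median log2 change of 0.49. B2m, the light chain of class I molecules, measured 13.46, 13.87 and 13.87 in mimic cells, against 13.32, 13.16 and 13.22 in Day1 cells (log2 change 0.50 ± 0.12, limma adjusted p = 0.0325). Tapbp, which loads peptides, rose by 1.15, H2-T23 by 0.95, Tap2 by 0.80, H2-D1, whose probe may read related class I genes, by 0.59, and Psme1 by 0.49. Psmb10, an immunoproteasome subunit, fell by 0.72. Without replicate 1, 9 members rose and Psmb10 fell. None passed without mimic replicate 2 or 3, Day1 replicate 2 or 3, or with median scaling, 1 did without Day1 replicate 1 or Day2 replicate 2 or 3, 4 without antimiR replicate 2 and 3 without antimiR replicate 3.

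Among the lists, extracellular matrix had the highest number of genes that rose. Its share was not the highest, since 6 of 13 antigen presentation genes rose. Of 37 tested members, 12 rose and 1 fell, beside 4.38% and 4.08% of all tested genes, with a median log2 change of 0.43. Without replicate 1, 20 rose and 4 fell, beside 18.2% and 19.5% of all tested genes. Mgp, matrix Gla protein, an inhibitor of calcification, measured 10.66, 12.41 and 12.52 in mimic cells, against 9.64, 9.19 and 9.42 in Day1 cells. Dcn, the small proteoglycan decorin, measured 5.92, 7.22 and 7.18 in mimic cells, against 4.98, 4.95 and 4.52 in Day1 cells, 2 of them above background. Lox measured 10.57, 11.20 and 11.18 in mimic cells, against 9.86, 9.78 and 9.77 in Day1 cells. In all of them replicate 1 lay about midway between the Day1 arrays and the other mimic arrays.

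The log2 change was 2.45 ± 0.43 for Mgp (limma adjusted p = 0.0145), 1.96 ± 0.32 for Dcn (adjusted p = 0.00937) and 1.18 ± 0.14 for Lox (adjusted p = 0.0016). The collagens Col6a1 and Col3a1 rose by 1.63 and 1.37, Spon2 by 2.13, the growth factor Ptn by 1.98, the matricellular genes Sparc and Thbs2 by 0.96 and 0.83, Loxl1 by 0.94, the protease inhibitor Timp2 by 0.92 and fibronectin, Fn1, by 0.72, while Fbln2 fell by 0.71. The basement membrane genes Col4a1 and Lamc1 had log2 changes of 0.21 and 0.13 that did not pass. Without mimic replicate 2 or 3, 2 and 1 members passed, without Day1 replicates 1, 2 and 3, 6, 1 and 1, without Day2 replicate 2 or 3 and antimiR replicate 3, 7 each, and with arrays scaled to a common median 2.

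Several of the largest rises were carried by mimic replicates 2 and 3 alone. Prelp, a leucine-rich matrix protein, measured 5.74, 9.81 and 9.74 in mimic cells, against 5.93, 5.05 and 5.38 in Day1 cells. Serping1, the inhibitor of the complement C1 proteases, measured 4.97, 8.05 and 8.30 in mimic cells, against 4.94, 4.95 and 4.69 in Day1 cells, on 2 of which it was above background. Islr, a secreted protein of mesenchymal cells, measured 4.49, 8.72 and 8.76 in mimic cells, on 2 of which it was above background, against 4.94, 5.03 and 4.95 in Day1 cells. In these 3 genes replicate 1 lay within or next to the Day1 values or below them, and the other mimic arrays far above. With all arrays Prelp (log2 change 2.98, limma adjusted p = 0.0428) and Serping1 (2.25, adjusted p = 0.0477) passed, while Islr (2.35, adjusted p = 0.0781) and the proteoglycan gene Ogn (2.18, adjusted p = 0.076) did not. Ogn measured 6.95, 10.69 and 10.73 in mimic cells, against 7.46, 7.20 and 7.16 in Day1 cells. Of 8 tested complement genes, 3 rose, Serping1, C1qtnf1 (above background on 2 of 3 Day1 arrays) by 1.77 and Cd59a by 0.93, and none did without mimic replicate 2 or 3, any Day1 replicate, Day2 replicate 2 or 3 or antimiR replicate 3, or with median scaling. Without Day2 replicate 1 or antimiR replicate 2, 1 did, and without mimic replicate 1, 4 did. Of all tested genes, 4.38% rose with all arrays and 18.2% without mimic replicate 1.

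Few genes of the muscle program passed with all arrays. Of 26 tested sarcomere genes limma called 0, with 5 under 0.05 before adjustment, with a median log2 change of 0.05, and Myog and Ckm, the marker genes of differentiated muscle, were above background on none of the 6 arrays. Without replicate 1, 7 sarcomere genes rose, beside 18.2% of all tested genes: Tnnt1, Actn3, Tnni2, Mylpf, Tnnc2, Des and Tnnc1. Tnnt1, slow troponin T, measured 7.52, 10.77 and 10.76 in mimic cells, against 7.96, 8.10 and 8.23 in Day1 cells. Myod1, the transcription factor that commits cells to the muscle lineage, measured 8.90, 10.39 and 10.50 in mimic cells, against 9.44, 9.23 and 9.46 in Day1 cells. Both were lower on replicate 1 than on any Day1 array and higher on replicates 2 and 3 than on any Day1 array. The log2 change with all arrays was 1.59 ± 0.64 for Tnnt1 (limma adjusted p = 0.121) and 0.55 ± 0.30 for Myod1 (adjusted p = 0.24), and 2.67 and 1.06 without replicate 1.

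Among 16 tested genes of excitation-contraction coupling and the neuromuscular junction, 3 rose and 0 fell, beside 4.38% and 4.08% of all tested genes (median log2 change 0.32). Without replicate 1, 8 rose and 2 fell, Chrnb1 by 0.50 and Jph1 by 0.37, beside 18.2% and 19.5% of all tested genes. Chrng, the embryonic gamma subunit of the acetylcholine receptor, measured 6.75, 8.99 and 8.55 in mimic cells, against 6.42, 6.05 and 5.99 in Day1 cells (log2 change 1.94 ± 0.43, limma adjusted p = 0.0277). Chrnd, its delta subunit, above background on 1 of 3 Day1 arrays, rose by 0.83 and Cacng1, a calcium channel subunit, by 0.69. Among 14 genes of myoblast adhesion and fusion 3 rose: the laminin receptor Itga7, M-cadherin (Cdh15) and dysferlin (Dysf). Itga7 measured 8.17, 8.15 and 8.31 in mimic cells, against 7.59, 7.65 and 7.59 in Day1 cells, with replicate 1 level with the others. Its log2 change was 0.60 ± 0.10 (limma adjusted p = 0.0122), beside 0.86 for Cdh15 and 0.72 for Dysf. Without replicate 1, 5 of the 14 rose and 1 fell, beside 18.2% and 19.5% of all tested genes.

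Of 11 tested myogenic regulators, Tead1 rose by 0.55 and Tead4 fell by 1.06, both partners of the Hippo pathway cofactors. Of 12 tested inhibitors of differentiation, Sox9, Zeb1 and Bhlhe40 rose by 0.97, 0.41 and 0.43, and Id1 and Id2 had log2 changes of -0.09 and 0.18 that did not pass. Of 16 muscle energy genes only Cox6a2 passed. Without replicate 1, 4 regulators rose and 2 fell, 6 inhibitors rose and 1 fell, and 4 energy genes rose and 2 fell. Of all tested genes, 4.38% rose and 4.08% fell with all arrays, and 18.2% and 19.5% without replicate 1. Without mimic replicate 2 or 3 or Day1 replicates 1, 2 or 3, at most 1 member passed in the lists of coupling, fusion, regulators, inhibitors and energy. With median scaling 1 energy gene passed and 0 of the other lists. Leaving out Day2 replicate 2 or 3 or antimiR replicate 2 or 3 lowered the coupling list to 2, Day2 replicate 2 or 3 or antimiR replicate 2 lowered the inhibitors to 1, and antimiR replicate 3 lowered them to 2. The regulators were at 1 without Day2 replicate 2 or 3 or antimiR replicate 2 or 3.

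Published targets of the seed were mixed in direction. Of 36 tested 6 fell and 1 rose, beside 4.08% and 4.38% of all tested genes, with a median log2 change of -0.04. The targets that fell were Gja1, Ccnd2, Vegfa, Hspd1, Mmd and E2f5. Gja1, the gap junction protein connexin 43 and a known muscle target of this seed, measured 11.79, 11.47 and 11.51 in mimic cells, against 11.997, 12.002 and 11.979 in Day1 cells. Ccnd2, cyclin D2, measured 9.09, 7.81 and 8.01 in mimic cells, against 9.30, 9.48 and 9.24 in Day1 cells. E2f5, a transcription factor of the cell cycle, measured 7.47, 7.51 and 7.65 in mimic cells, against 7.99, 7.88 and 7.93 in Day1 cells. Every mimic array was below every Day1 array in these 3 genes, and replicate 1 was the lowest for E2f5. The log2 change was -0.40 ± 0.09 for Gja1 (limma adjusted p = 0.0303), -1.04 ± 0.24 for Ccnd2 (adjusted p = 0.0319) and -0.39 ± 0.11 for E2f5 (adjusted p = 0.0475).

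Vegfa, the vascular growth factor, fell by 0.77, the chaperonin gene Hspd1 by 0.74 and Mmd by 0.67, while Sox9 rose. Sox9, which restrains muscle differentiation, measured 10.60, 11.06 and 10.88 in mimic cells, against 9.70, 10.05 and 9.87 in Day1 cells. Of the other 29 targets, Notch3 had a log2 change of 1.18 (limma adjusted p = 0.0558), Fstl1 of 0.71 (adjusted p = 0.0944), Gpd2 of -0.46 (adjusted p = 0.0642) and Ccnd1 of -0.69 (adjusted p = 0.162). Hdac4, Tkt, Klf4, Bdnf, Anxa2 and Cdk4 lay between -0.17 and 0.15. Without replicate 1, 11 targets fell and 8 rose, beside 19.5% and 18.2% of all tested genes. On mimic arrays 1 to 3, 20, 23 and 20 of the 36 targets were below the Day1 mean, beside 5338, 5317 and 5508 of all 10653 genes. A single target, 1 of 36, was called without mimic replicate 2 or 3, any Day1 replicate or Day2 replicate 2, 3 targets were called without Day2 replicate 3 or antimiR replicate 2 or 3, and none with arrays scaled to a common median. Target sites in the transcripts were not analysed here.

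Components of the RNA silencing machinery were of interest because a mimic works through some of them. Of 14 tested, Xpo5, the export receptor of microRNA precursors, fell by 0.81, and Tarbp2, the partner of Dicer, measured 8.69, 7.86 and 7.93 in mimic cells, against 8.61, 8.97 and 8.86 in Day1 cells (log2 change -0.65, limma adjusted p = 0.0532). Ago2 and Dicer1 had log2 changes of 0.17 and 0.12. Without replicate 1, 2 rose and 4 fell, Xpo5 and Tarbp2 among the latter. Of all tested genes, 18.2% rose and 19.5% fell without replicate 1, so the number called in this list was near that share. Xpo5 did not pass without mimic replicate 2 or 3, any Day1 replicate, Day2 replicate 2 or 3 or antimiR replicate 2 or 3, or with median scaling.

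Cell cycle genes lay near the Day1 level on replicate 1 and below it on the other mimic arrays. Of 37 tested genes 2 fell with all arrays, near the 4.08% of all tested genes that fell, Cdc6, which licenses replication origins, by 0.82, and Cdk2, the kinase of S phase entry, by 0.69. Without replicate 1, 26 fell and 0 rose, beside 19.5% of all tested genes that fell. On mimic replicates 2 and 3, 36 of the 37 genes were below the Day1 mean, with median log2 differences of -0.59 and -0.58, and on replicate 1, 17 were, with a median of 0.06. With arrays scaled to a common median, all tested genes had median differences of 0.36, -0.10 and -0.34 on mimic arrays 1 to 3, and the cell cycle list lay 0.07 above, 0.66 below and 0.81 below these. Ccnd1, cyclin D1, measured 12.93, 11.31 and 11.27 in mimic cells, against 12.68, 12.44 and 12.47 in Day1 cells, so that replicate 1 was the highest of the 6 arrays and replicates 2 and 3 the lowest. No cell cycle gene passed without mimic replicate 2 or 3, any Day1 replicate or with median scaling, 1 did without Day2 replicate 2 or 3 or antimiR replicate 3, and 6 did without antimiR replicate 1.

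In the remaining lists few members passed. Of 15 endoplasmic reticulum chaperones and their regulators, Pdia3 rose by 0.36 and Hspa5, the main chaperone of that compartment, had a log2 change of -0.46 that did not pass, above background on 1 of 3 mimic arrays. Notch1 rose by 0.94 among 9 Notch pathway genes, Inhba fell by 1.25 among 14 genes of the TGF-beta and BMP response, and Fas and Sesn1 rose by 0.94 and 0.99 while Ccng1 fell by 0.65 among 16 p53 targets and apoptosis genes. Gstm1 rose by 1.25 and Slc7a11 fell among 17 genes of glutathione and the NRF2 response. The adipocyte regulators moved apart, Cebpa (above background on 2 of 3 Day1 arrays) up by 1.28 and Pparg down by 0.75, in a list of 3 tested markers whose defining Fabp4 and Plin1 were above background on none of the 6 arrays. None of 25 oxidative phosphorylation, 18 ribosomal protein or 16 cholesterol synthesis genes passed in limma, with 3, 3 and 2 at an unadjusted p under 0.05. Without replicate 1, 5, 2 and 3 passed. Also without replicate 1, 7 chaperones rose and 0 fell, 4 Notch genes rose and 1 fell, 4 TGF-beta and BMP genes rose and 5 fell, 4 p53 targets rose and 3 fell, 1 glutathione gene rose and 4 fell, and 2 adipocyte markers rose and 1 fell, beside 18.2% and 19.5% of all tested genes. None of the calls in this paragraph with all arrays was made without mimic replicate 2 or 3 or Day1 replicate 2 or 3, or with median scaling, and without Day1 replicate 1 the TGF-beta and glutathione lists had 1 each and the others 0. The p53 list had 0 without any Day2 replicate or antimiR replicate 2 or 3. The chaperones had 0 without Day2 replicate 2 or 3 or antimiR replicate 2 or 3. The adipocyte list had 1 without Day2 replicate 1 or antimiR replicate 2 and 0 without Day2 replicate 2 or 3 or antimiR replicate 3. The glutathione list had 1 without any Day2 replicate or antimiR replicate 2 or 3.

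**Figure D3:**
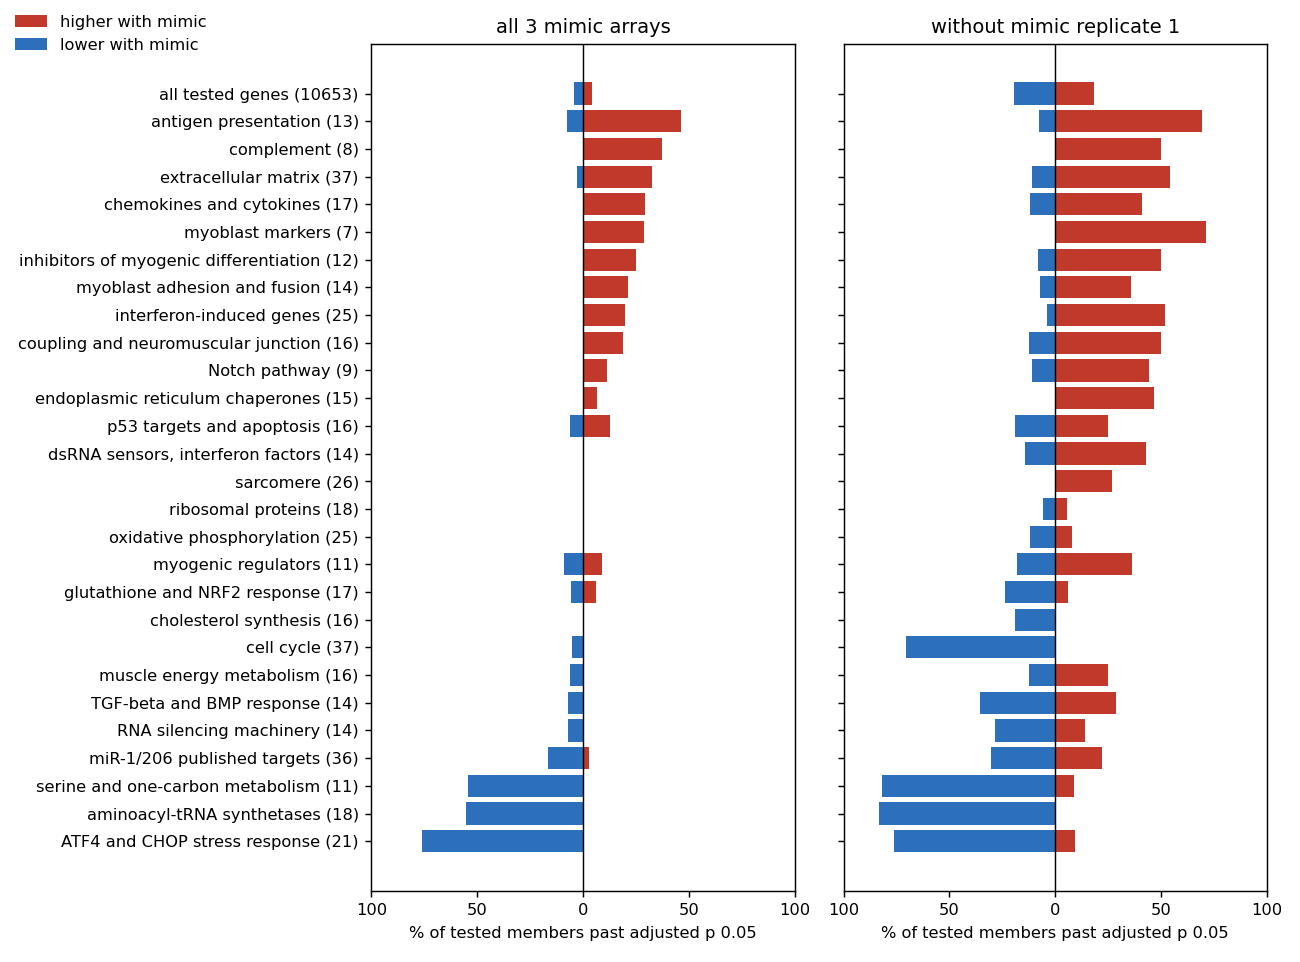
Percentage of the tested members of each gene list (number tested in brackets) that passed an adjusted p of 0.05 as higher with the mimic (red, to the right) or lower with the mimic (blue, to the left), with all 3 mimic arrays and without mimic replicate 1. The ATF4 and CHOP list has the longest bar on the lower side with all arrays, 16 of 21 members, and the cell cycle list gains most on leaving out replicate 1, with 26 of 37 members against 2.

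How far replicate 1 had moved was described by its position, where 0 is the Day1 mean and 1 the mean of mimic replicates 2 and 3. Over the 4017 genes called without it, the median position was 0.124, with quartiles of -0.09 and 0.327. Replicate 1 was on the far side of the Day1 mean in 1382 genes (34.4%), at 0 to 0.25 in 1275 (31.7%) and over 0.75 in 212 (5.28%). Among the 700 of these genes that changed at least 2-fold, 200 lay below 0, 322 at 0 to 0.25, 141 at 0.25 to 0.5, 29 at 0.5 to 0.75 and 8 over 0.75. The other mimic arrays set the scale, so no test was made. The median over the 4017 genes was -0.12 with arrays scaled to a common median, and 0.121 over the 700 genes, against 0.167 with that scaling.

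The gene groups did not share a position. The median was 0.383 for 18 ATF4 and CHOP genes, 0.244 for 15 aminoacyl-tRNA synthetases, 0.493 for 9 chemokine and cytokine genes and 0.198 for 14 interferon-induced genes, and -0.105 for 7 sarcomere genes and -0.10 for 10 coupling and neuromuscular junction genes. This order depended on the scaling: with arrays scaled to a common median it was 0.147 for the ATF4 and CHOP genes and 0.243 for the 23 sarcomere, coupling and energy genes together. Relative to all tested genes on the same array, the ATF4 and CHOP list had a median log2 difference of -0.51 on replicate 1 under that scaling, against -0.97 and -0.99 on replicates 2 and 3. With the quantile-normalized values the medians of that list were -0.56 on replicate 1 and -1.01 and -1.04 on replicates 2 and 3. The positions of single genes depended on it too. Of 136 genes picked for description, 44 kept their position within 0.25 under median scaling and 43 moved by over 0.5. Quantile-normalized and median-scaled positions were 0.78 and 0.71 for Atf3, 0.41 and 0.29 for Trib3 and -0.13 and -0.13 for Islr. They were 0.69 and 0.10 for Nupr1, 0.58 and 0.15 for Eif4ebp1, 0.56 and 1.20 for Lox, 0.91 and 3.73 for Itga7, 0.69 and 8.48 for Zeb1 and -0.10 and 1.00 for Des.

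**Figure D4:**
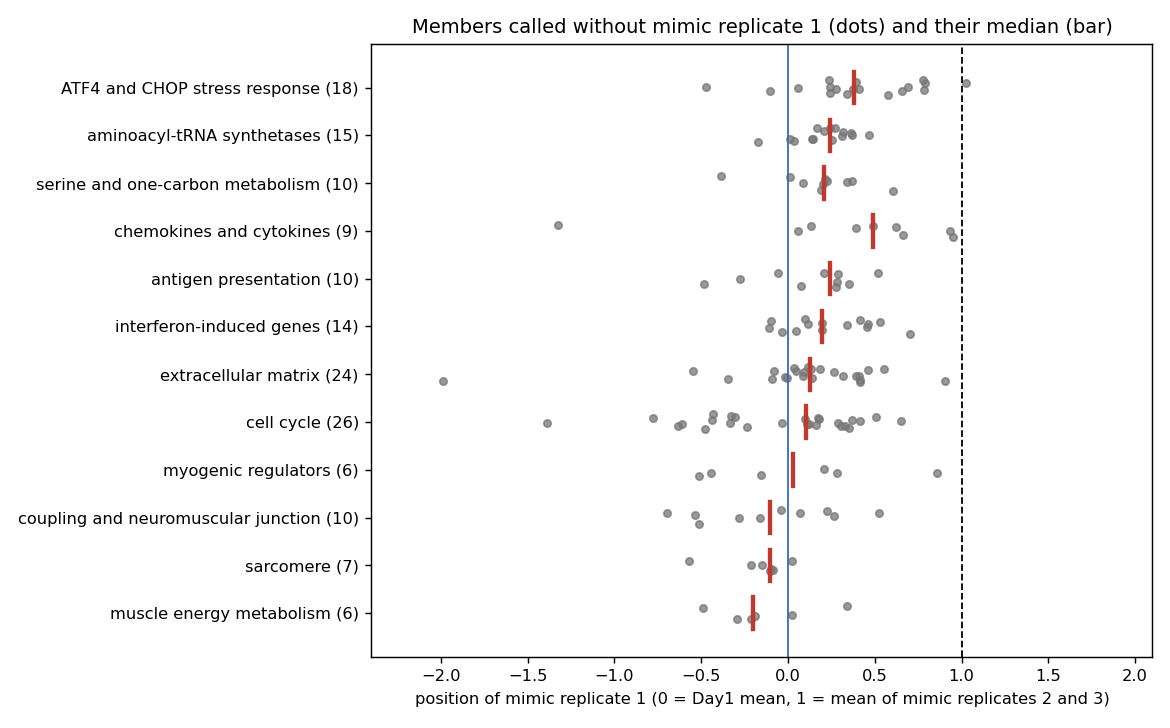
Position of mimic replicate 1 between the Day1 mean (0, blue line) and the mean of mimic replicates 2 and 3 (1, dashed line) for the members of 12 gene lists called without replicate 1 (dots, number in brackets), with the median of each list as a red bar. The ATF4 and CHOP median is at 0.383 and the sarcomere median at -0.105 with quantile-normalized values, and with arrays scaled to a common median the ATF4 and CHOP list (0.147) lay below the sarcomere, coupling and energy lists combined (0.243).

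The arrays most like the mimic arrays outside this comparison were those of antimiR-206 at 48 h. Mimic replicates 2 and 3 correlated across genes at 0.993 to 0.995 and at 0.989 to 0.992 with the antimiR arrays, and replicate 1 at 0.97 to 0.983. Differences from Day1 described above were also present in antimiR cells, in genes picked as examples. Mean levels in mimic, antimiR and Day1 cells were 10.57, 10.28 and 12.40 for Asns and 10.68, 10.83 and 7.51 for Ccl5. For Cdc6 they were 7.61, 7.90 and 8.43, with antimiR cells in between. Such differences were therefore not particular to the mimic. Between mimic and antimiR cells 0 of 10653 genes passed in limma, with 507 at an unadjusted p under 0.05 (4.76%), and 1 passed without mimic replicate 1 (0.00939%), with 1300 unadjusted (12.2%). With array weights, which gave mimic replicate 1 a weight of 0.131, 527 genes passed. These groups also differ in culture time, so the treatment and the time cannot be told apart, and a p that misses the threshold does not show that they are alike.

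**Figure D5:**
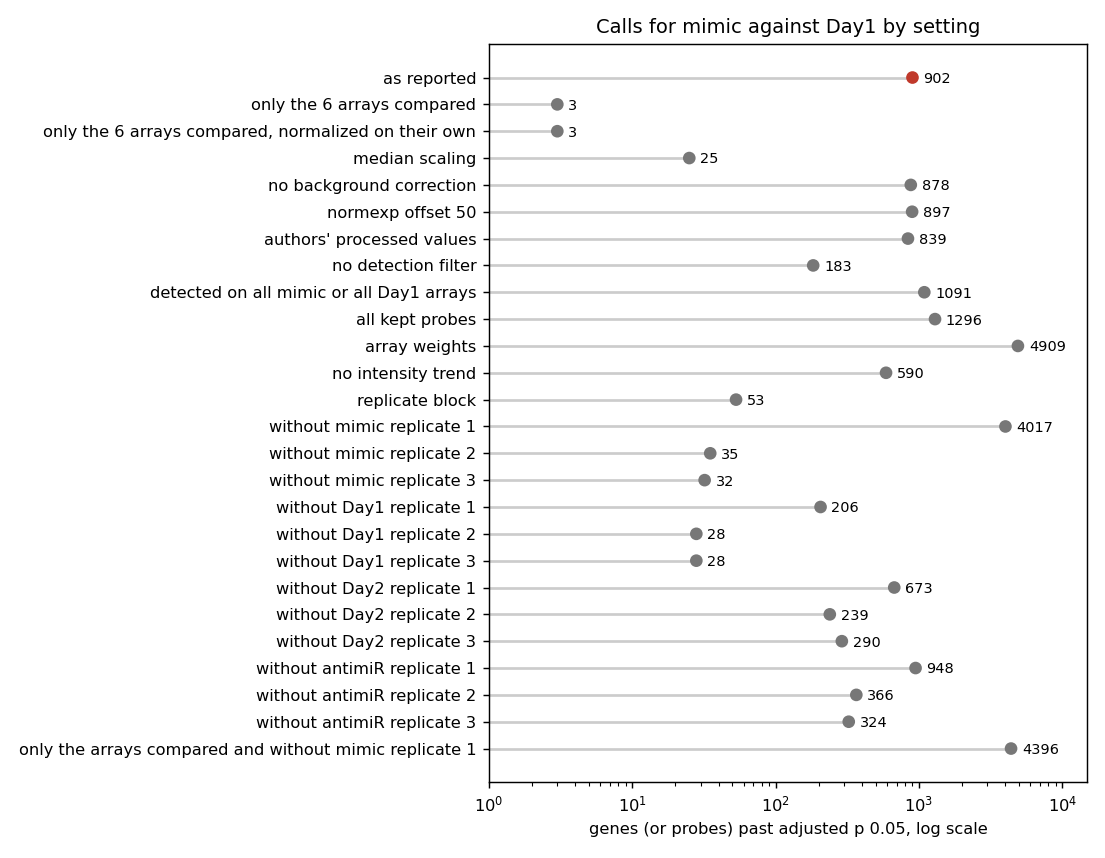
Number of genes (or probes, where all kept probes were tested) that passed an adjusted p of 0.05 for mimic against Day1 with the reported processing (red, 902) and under each alternative (grey), on a log scale. The counts run from 3 with only the 6 compared arrays to 4909 with array weights.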

How the data were processed

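Total RNA of C2C12 cells was hybridised to 12 Illumina bead arrays in 4 groups of 3. The deposited scanner table gives the scanner's linear intensity of every probe. The file headers record neither normalization nor background subtraction. Beside it the authors deposited a detection score that rises with brightness, and 1 minus the score served as the detection p. A second table deposited by the authors holds processed values on a log2 scale, made with lumi per the submitters' processing notes, with no version or background step given in the sources used here.

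Intensities were background-corrected by normexp with an offset of 16, quantile-normalized and taken to log2 in limma 3.58.1 (R 4.3.3). Probes detected at p under 0.05 on at least 3 of 12 arrays were kept, 19809 of 45281. The brightest of a gene's probes with a single symbol stood for the gene, which gave 10653 genes. Symbols came from the platform annotation, and 34807 of 34885 single-symbol probes were found in the RefSeq gene table.

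A limma model with 4 group means, variances following intensity and 8 residual degrees of freedom gave two-sided p-values, adjusted by Benjamini-Hochberg over all genes at a threshold of 0.05. The shared spread means that the 48 h arrays affect the calls. For a gene above background in no sample of a group, the fold is a lower limit, set against the dimmest detected probe of each array where that was brighter. That limit holds for the reported processing only. The script was tested on simulated data with a capped spread per gene and no outlying replicate, so that test does not cover an array that deviates from its group. The members and gene lists were chosen with earlier results of these data known.

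Genes were named from the 12 largest rises and falls, the 12 widest gaps in each direction between the groups, genes called on the 6 arrays alone, the 10 in each direction where replicate 1 lay farthest from replicates 2 and 3, the first 4 members of each list by p, all tested miR-1/206 targets and cell type markers. Other genes, most of them list members, were named after their values were seen, as were the 26 genes called with each array left out. Alternatives covered the arrays fitted, normalization, background, filter, probes, weights, variance trend, replicate number as a block and each array left out. The number of arrays limits the precision.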

Additional observations from a re-analysis of the deposited data

How the results depend on the processing

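The count of genes for mimic against Day1 was 902 as reported, with 120 of the genes named here and 97 list members called. On only the 6 arrays compared, normalized with the others or on their own, these were 3, 3 and 2, the list members being Ccl5 and Cdsn. The chemokine and keratinocyte lists thus had 1 call each and every other list had 0. With arrays scaled to a common median the counts were 25, 18 and 10, with 36% of calls higher against 51.8%. Without the detection filter they were 183, 63 and 43. Array weights gave 4909 genes and 281 list members, a variance without trend 590 genes, and only the arrays compared without mimic replicate 1 gave 4396 and 268. All kept probes gave 1296 calls. Leaving out each array in turn gave 28 to 4017 genes, 27 to 120 named genes and 10 to 246 list members, the low ends without Day1 replicates 2 or 3 and the high ends without mimic replicate 1. Mimic against antimiR gave 0 to 1 calls on leaving out arrays, 1 with median scaling and 527 with array weights. The median position of replicate 1 was -0.12 with median scaling and 0.123 to 0.127 under 3 other alternatives, all added after the data were seen.

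The alternatives were followed gene by gene for 136 of the named genes, all of them called without mimic replicate 1. Among these no direction was reversed, 2219 values kept their side of the threshold, 1122 no longer passed and 58 newly passed. Directions of the other named genes were not counted, and they may reverse when replicate 1 is left out. With the replicate number as a block, 53 genes, 40 named genes and 22 list members passed. Deviations of same-numbered mimic and Day1 arrays from their group means correlated at -0.0636, -0.0223 and 0.121. Those of differently numbered arrays correlated at -0.155 to 0.164. Because mimic replicate 1 lay far from the other mimic arrays, this check cannot show whether the numbers pair the samples. The cause of these shifts was not tested. Dim probes limit the genes above background on some arrays. For several such genes the size of the change also depended on the processing. Over all alternatives the log2 change ran from -1.10 to -0.31 for Atf3, -2.69 to -0.98 for Maats1 and 0.83 to 2.38 for Dcn. With single arrays left out it ran from -1.08 to -0.95, -2.69 to -1.99 and 1.73 to 2.38. Matches of the seed in target transcripts were not run, because no transcript sequence was used here.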

Other observations

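A small number of genes set mimic replicate 1 apart from all 5 other arrays, and these belong in no comparison. On 4 genes it was at least 2-fold above the highest of the others, and on 0 genes at least 2-fold below the lowest. Mimic replicate 3 was at least 2-fold above all others on 4 genes as well, and mimic replicate 2 on 0. Defb28, a beta-defensin gene, measured 8.59, 5.50 and 5.38 on mimic arrays 1 to 3, against 7.14, 6.94 and 7.01 in Day1 cells. Klhl30, a kelch-like gene, measured 6.91, 5.71 and 5.48 on the mimic arrays, against 5.09, 5.05 and 5.14 in Day1 cells, so that all mimic arrays were above Day1 and replicate 1 the most. The glutathione transferase genes Gsta1 and Gsta2, close relatives whose transcripts cannot be told apart here, measured 11.60 and 11.72 on mimic replicate 1, between 9.83 and 10.10 on mimic replicates 2 and 3, and between 10.31 and 10.62 in Day1 cells.

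By smaller margins, replicate 1 was the highest array for Nes, the filament protein nestin, with 11.47 on replicate 1, 10.14 and 10.30 on mimic replicates 2 and 3, and 10.34 to 10.61 in Day1 cells. It was also the highest for the chemokine Ccl2, with 9.39 on replicate 1, 8.31 and 8.35 on the other mimic arrays and 8.53 to 8.65 in Day1 cells. It was the lowest array for Igfbp4, with 5.52 on replicate 1, 6.49 and 6.92 on the other mimic arrays and 6.40 to 6.68 in Day1 cells, and for Gadd45a, with 9.25 on replicate 1, 10.66 and 10.53 on the other mimic arrays and 9.94 to 10.17 in Day1 cells. These genes were chosen after their values were seen.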
